A study of Mus musculus with 8 samples.

Results

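The 4 vehicle-treated cultures of calvarial osteoblasts were described on their own, as the baseline transcriptome of the system, and they make up 4 of the 8 samples of the series. They were chosen by their labels alone, and all 47592 gene symbols of the count table were read in them. Calvarial osteoblasts are bone-forming cells released by collagenase from the skullcaps of newborn mice. The cultures were differentiated for 7 days, serum-starved, and then held for 24 hours with the vehicle of the hormone PTH, which is phosphate-buffered saline in the study's methods. Sample labels name adipogenic differentiation as the treatment, whereas the methods describe β-glycerol phosphate and ascorbic acid, the usual osteogenic supplements. Neither the strain nor the genotype of the pups is given in the labels beyond the letters Con, and nothing says whether the 4 cultures came from separate litters, so the spread between them may be partly technical. Poly(A)-selected RNA was sequenced from whole cultures, so a population of several cell types was measured. In such bulk RNA, fewer cells of a type and less RNA per cell cannot be told apart.

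Osteoblasts lay down osteoid, a matrix made chiefly of type I collagen, and later load it with mineral. Their differentiation is directed by the transcription factors Runx2 and Sp7 (osterix). Early cells make collagen and alkaline phosphatase, late cells make bone sialoprotein and osteocalcin, and the cells buried in mineral become osteocytes that secrete sclerostin and FGF23. PTH acts on these cells through the receptor Pth1r, and the vehicle cultures show what was expressed without the hormone, after 24 hours with the vehicle.

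Total counts lay between 41610132 and 46748104 per culture. Levels are given as CPM (counts scaled to a library of 1000000, with library sizes set by the TMM method), or as CPM per kb of the main annotated transcript where different genes are compared, and a gene said to lead a list leads it by CPM, an order that length can change. The sign ± is the SD over n = 4 cultures. At 1 CPM or more in all 4 cultures there were 13467 genes, 12047 of them protein-coding, which is 56.3% of the protein-coding genes listed. A further 1053 genes reached 1 CPM in some cultures but not in all. The number of genes at that level ranged from 13933 to 13998 per culture. Of the expressed genes, 8.87% lie in an assembled locus shared with another gene symbol, for which the split of the counts is uncertain. Some genes named below lie in such a locus without a further mention, such as Fgfr2, Anxa5, Ank, Eef1a1, Ftl1 and H19. 1 culture, vehicle replicate 4, stood apart in markers of mature osteoblasts and of macrophages, and the levels of those lists are given with and without it.

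Genes of the extracellular matrix were prominent among the most abundant genes. The 10 most abundant genes took 14.9% ± 0.758 of all counts, and 647 genes took 50% of them. Type I collagen alone, from Col1a1 and Col1a2, took 8.30% ± 0.463. Of the 30 genes with the highest CPM, 16 encode collagens, small leucine-rich proteoglycans or matrix glycoproteins. These 3 lists, 101 genes together, took 17.9% ± 0.306 of the counts. The 90 cytosolic ribosomal protein genes took 2.12% ± 0.103 and the 37 genes of the mitochondrial chromosome took 1.43% ± 0.123. Such shares are not corrected for transcript length, so they do not compare numbers of transcripts.

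Col1a1 (chromosome 11, 94936224 to 94953042, GRCm38), the α1 chain of type I collagen, measured 45322, 43331, 47519 and 49182 CPM in vehicle replicates 1 to 4. Col1a2 (chromosome 6, 4504814 to 4541544), the α2 chain, measured 36266, 34029, 37657 and 38581 CPM in the same order. Both chains were lowest in replicate 2 and highest in replicate 4, and they kept nearly the same proportion in every culture. Type I collagen is assembled from a pair of α1 chains and a single α2 chain. Per kb of the main transcript, Col1a1 stood at 7814 and Col1a2 at 6849.9, a ratio of 1.14 ± 0.0105. That ratio depends on the length taken for each gene, since the share of Col1a1 in the pair was 53.3% by the main transcript and 70.5% by all annotated exons merged. Sparc (chromosome 11, 55394500 to 55423183), which encodes osteonectin, a collagen- and calcium-binding glycoprotein of bone, measured 17166, 16849, 17453 and 18518 CPM. Per kb it reached 7607, second to Col1a1 and above Col1a2, and it differed from Col1a1 by less than their SDs of 315 and 431 CPM per kb.

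**Figure D1:**
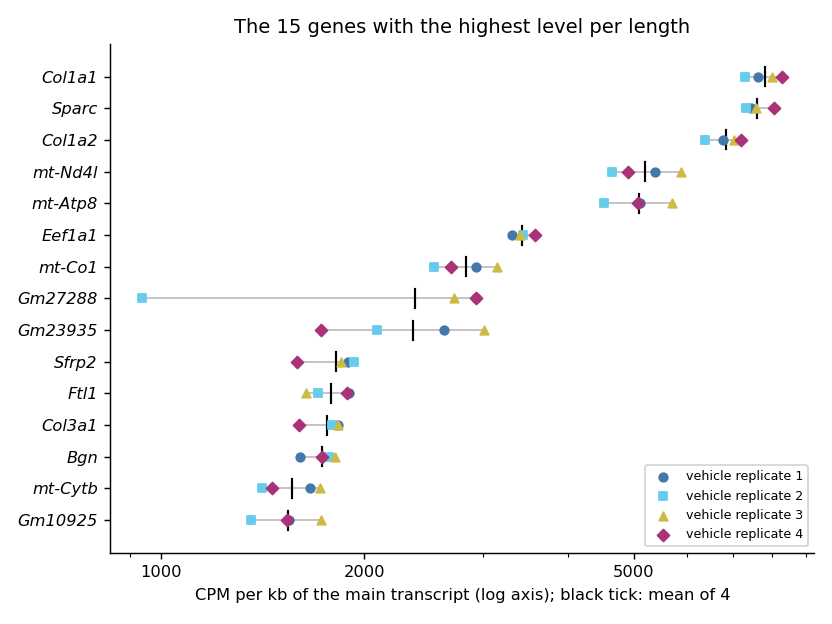
The 15 genes with the highest CPM per kb of the main transcript (x axis, log scale), with 1 point for each vehicle culture, a grey line over their range and a black tick at their mean. Col1a1, Sparc and Col1a2 lead with means of 7814, 7607 and 6849.9 CPM per kb, and the 4 cultures of each lie close together, unlike those of the short entry Gm27288.

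Length changed which genes ranked highest. By CPM the list went on with Rn18s-rs5, Col3a1, Thbs1, Eef1a1, mt-Co1, Fn1 and Bgn. Only 5 of the 10 highest genes by CPM were also among the 10 highest per kb. Eef1a1, the translation elongation factor, stood at 3425 CPM per kb, the iron-storage gene Ftl1 at 1784, and the secreted Wnt antagonist Sfrp2 at 1818. The mitochondrial genes mt-Nd4l and mt-Atp8, short genes that overlap mt-Nd4 and mt-Atp6, stood at 5199.5 and 5098 CPM per kb, while mt-Nd4, named here after its values were seen, was given 0.158 ± 0.00897 CPM. Counts within each overlapping pair therefore cannot be assigned to 1 gene. Gm27288 and Gm23935 are annotated as miRNA entries 80 and 57 bases long, and Gm10925 is a pseudogene that shares sequence with mt-Atp6, so their places are uncertain too. Rn18s-rs5, a ribosomal RNA entry with no length in the annotation, measured 9249.9, 9336, 20136 and 7174 CPM, and replicate 3 was 2.16-fold above the next highest culture.

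All 9 osteoblast markers were expressed, at 100 CPM or more on average, which bears on the labelled cell type. Their median was 219, 237, 263 and 389 CPM in replicates 1 to 4, a mean of 277 ± 76.6, or 239 without replicate 4. Ibsp (chromosome 5, 104299171 to 104311469), bone sialoprotein, which binds hydroxyapatite, measured 1214, 1130.0, 1364 and 2177 CPM. Alpl (chromosome 4, 137741733 to 137796384), tissue-nonspecific alkaline phosphatase, which frees phosphate for mineral, measured 216, 237, 263 and 314 CPM. For both genes replicate 4 was the highest and stood above the other 3 cultures.

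Among the regulators, Runx2 (chromosome 17, 44495987 to 44814797) measured 116, 117, 124 and 129 CPM, and the 4 cultures lay within a narrow range. Sp7 (chromosome 15, 102356606 to 102367182), which acts downstream of Runx2, measured 78.1, 89.8, 114 and 149 CPM with the lowest value in replicate 1 and the highest in replicate 4. Pth1r (chromosome 9, 110722085 to 110747145), the receptor for PTH and PTH-related protein, measured 123, 129.98, 142 and 174 CPM, or 61.6 CPM per kb on average. The receptor was thus present in every vehicle culture, again highest in replicate 4. Per kb, Ibsp stood at 711, Bglap at 598, Alpl at 102, Sp7 at 34.8 and Runx2 at 20.6. Bglap and Ibsp differed by less than their SDs of 196 and 232 CPM per kb.

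**Figure D2:**
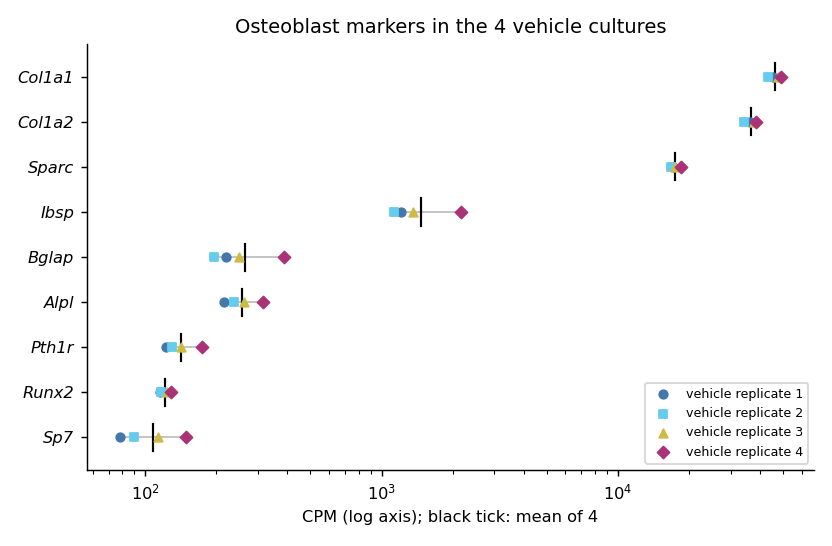
CPM of the 9 osteoblast markers (x axis, log scale) in the 4 vehicle cultures, with a grey line over the range and a black tick at the mean. Every marker is highest in vehicle replicate 4, by little for Col1a1, Col1a2, Sparc and Runx2 and by more for Ibsp and Bglap.

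Osteocalcin, the vitamin K-dependent bone protein that also circulates as a hormone, comes in mouse from neighbouring genes. Bglap (chromosome 3, 88383501 to 88384464, minus strand) measured 219, 196, 249.9 and 389 CPM, Bglap2 (chromosome 3, 88377736 to 88378699, minus strand) measured 229, 223, 246 and 403 CPM, and Bglap3 (chromosome 3, 88368616 to 88372743, minus strand) measured 0.373, 0.215, 0.239 and 3.56 CPM. Bglap and Bglap2 were close to each other in every culture, and Bglap3 stayed far below both, highest in replicate 4. Their coding sequences are shown because they limit what the counts can say. Each is printed 5′ to 3′ from the GENCODE M21 transcripts without the stop codon, 285 bases long, with capitals at the bases that differ from Bglap or, in Bglap itself, from Bglap2.
Bglap: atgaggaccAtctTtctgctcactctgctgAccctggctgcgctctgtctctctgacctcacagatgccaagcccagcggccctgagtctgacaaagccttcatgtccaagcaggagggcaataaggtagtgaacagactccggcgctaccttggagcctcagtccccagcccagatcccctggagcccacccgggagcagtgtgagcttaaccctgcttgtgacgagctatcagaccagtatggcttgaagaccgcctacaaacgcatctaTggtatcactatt
Bglap2: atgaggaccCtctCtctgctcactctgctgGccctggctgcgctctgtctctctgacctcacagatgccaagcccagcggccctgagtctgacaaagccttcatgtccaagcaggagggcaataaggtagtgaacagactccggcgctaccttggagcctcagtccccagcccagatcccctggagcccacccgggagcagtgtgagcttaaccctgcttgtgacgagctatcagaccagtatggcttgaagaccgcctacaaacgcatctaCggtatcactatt
Bglap3: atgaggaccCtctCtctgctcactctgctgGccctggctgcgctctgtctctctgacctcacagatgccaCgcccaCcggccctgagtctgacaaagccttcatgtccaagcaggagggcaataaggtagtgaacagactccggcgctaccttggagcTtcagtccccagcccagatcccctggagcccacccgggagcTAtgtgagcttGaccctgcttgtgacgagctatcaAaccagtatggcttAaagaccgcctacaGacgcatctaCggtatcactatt
Bglap and Bglap2 differed at 4 of the 285 positions, an identity of 98.6%, and Bglap3 differed from Bglap at 13, an identity of 95.4%. The counts of these 3 genes come from reads of 150 bases in pairs. Most of the coding sequence gives no base by which a single read could be told to come from Bglap or Bglap2. A pair that reaches a differing base near either end of it could be told apart, and how many pairs did is not known. The nearly equal split, 50.46% ± 1.495 for Bglap and 49.51% ± 1.502 for Bglap2 per kb, is therefore uncertain, whereas the sum of the pair does not depend on it. By merged exons, Bglap held 42.0% and Bglap2 57.9%, so the split also depends on the length taken. Bases outside the coding sequence were not compared.

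The 250 bases before the start site of Bglap (GRCm38.p6, RefSeq, minus strand, within chr3:88384417-88384716) are shown because this gene is the classical target of Runx2 and ranked among the markers that varied most. Capitals mark ACCACA, the core that Runx proteins bind, 132 bases before the start, and TATAAA, the TATA box, 27 bases before it.
Bglap: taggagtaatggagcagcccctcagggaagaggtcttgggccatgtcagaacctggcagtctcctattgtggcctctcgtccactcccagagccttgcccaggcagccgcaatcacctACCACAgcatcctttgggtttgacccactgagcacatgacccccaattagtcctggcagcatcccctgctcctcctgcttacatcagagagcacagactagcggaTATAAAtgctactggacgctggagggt
Among 32851 promoters of the same length, 14.05% held ACCACA on either strand and 12.37% held TATAAA. Of 8 mature osteoblast markers with a promoter in the table, 3 held ACCACA, which were Bglap, Dmp1 and Spp1, and 4 held TATAAA. A match of letters describes the window and was not tested as a binding site.

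By stage, the cultures held both early and late genes. All 15 progenitor markers were expressed, led by the limb and skull mesenchyme factor Prrx1 at 1014 ± 46.5 CPM and the surface glycoprotein Thy1 at 460.2 ± 12.5 CPM. Pdgfra and Pdgfrb, receptors for platelet-derived growth factor, stood at 240.4 ± 9.796 and 251 ± 24.3 CPM, and the suture stem cell genes Gli1 and Axin2, readouts of Hedgehog and Wnt signalling, at 12.4 ± 2.34 and 9.49 ± 1.28 CPM. Twist1, which holds back Runx2 in the cranial sutures, stood at 119 ± 8.004 CPM. The median of this list varied little, at 116 ± 5.25 CPM.

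All 12 mature osteoblast markers were expressed as well. Spp1, osteopontin, measured 476, 435, 503 and 740.1 CPM. Smpd3, a sphingomyelinase needed for mineralization, measured 154, 178, 221 and 333 CPM. Phospho1, the phosphatase that starts mineral inside matrix vesicles, measured 137, 159, 176 and 413 CPM. Each of these genes was highest in replicate 4, and Phospho1 was set apart most, at 2.63-fold the mean of the other 3 cultures. Phospho1 shares an assembled locus with Zfp652, so part of its counts may belong to that neighbour. Ifitm5, a bone-restricted membrane protein, stood at 53.7 ± 18.98 CPM (44.7 without replicate 4), Phex, the phosphate-regulating endopeptidase, at 42.3 ± 12.5 (36.3 without replicate 4), and Dmp1, an acidic matrix protein of late osteoblasts and osteocytes, at 18.9 ± 6.4001 (15.9 without replicate 4). The median of the list was 216 ± 92.4 CPM over 4 cultures and 170.3 CPM without replicate 4.

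Osteocyte genes divided in kind. Pdpn, the podoplanin of early embedding osteocytes, stood at 151 ± 5.25 CPM and Irx5 at 38.9 ± 2.13 CPM. Sost, which encodes sclerostin, and Fgf23, the phosphate hormone, had no count in any culture, and 3 counts, the limit that a count of 0 allows, correspond to at most 0.0717 CPM. Mepe stood at 0.324 ± 0.198 CPM. Thus 5 of the 8 osteocyte markers were expressed, and the 3 that were not include the secreted products of mature osteocytes.

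Mineralization genes were all present. Anxa2, Anxa5 and Anxa6, calcium-binding annexins found in matrix vesicles, stood at 689 ± 9.37, 468 ± 11.5 and 423 ± 9.42 CPM. Mgp, matrix Gla protein, an inhibitor of mineral, stood at 350.4 ± 40.4 CPM. Of the genes that handle pyrophosphate and phosphate, Ank, a pyrophosphate exporter, stood at 76.5 ± 4.91 CPM, Enpp1, which makes pyrophosphate, at 14.4 ± 1.402, and the phosphate transporters Slc20a1 and Slc20a2 at 26.7 ± 3.26 and 33.4 ± 1.61. The annexins had CVs of 1.36% to 2.46%, far smaller than the 58.3% of Phospho1.

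Of 44 collagen genes, 37 were expressed, and the family took 11.6% ± 0.363 of all counts. Col3a1, the fibrillar collagen of soft tissues, stood at 9809.9 ± 604 CPM, Col12a1, which coats fibrils, at 3749 ± 383, and Col5a2 and Col5a1, which set fibril diameter, at 2989 ± 51.9 and 2215 ± 136. Col8a1, a short-chain network collagen, stood at 2861 ± 115 CPM and Col6a1, of microfibrils, at 2102 ± 123 CPM. Per kb, Col1a1 exceeded Col3a1 by 4.45 ± 0.498-fold, and this ratio was 4.17, 4.08, 4.39 and 5.18 in replicates 1 to 4. The highest ratio was thus that of replicate 4, where Col3a1 was lowest and Col1a1 highest. Col3a1 lies in a locus shared with another symbol, so its level and the ratio carry that uncertainty.

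Enzymes that fold and crosslink collagen were all expressed, 25 of 25. Serpinh1, the collagen chaperone HSP47, stood at 2909.7 ± 89.3 CPM, Pcolce, the enhancer of procollagen C-proteinase, at 1356 ± 85.02 and P4hb, the shared subunit of prolyl 4-hydroxylase, at 1174 ± 47.7. Lox, the main lysyl oxidase, stood at 2352 ± 93.9 CPM and made up 69.8% ± 1.70 of the 5 lysyl oxidases per kb, followed by Loxl1 with 14.4% ± 1.24 and Loxl2 with 10.99% ± 0.762. P4ha1, a catalytic subunit of prolyl 4-hydroxylase named here after its values were seen, measured 264, 235, 288 and 466 CPM and was highest in replicate 4.

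Small leucine-rich proteoglycans, which bind collagen and growth factors, were all expressed, 13 of 13. Bgn, biglycan, stood at 4187 ± 216 CPM, Fmod, fibromodulin, at 2650.1 ± 302, Lum, lumican, at 2361 ± 138 and Dcn, decorin, at 1701 ± 103. Among the 44 matrix glycoproteins, 42 were expressed, with Thbs1 and Thbs2, the thrombospondins, at 8656 ± 608 and 3887 ± 468 CPM, fibronectin (Fn1) at 4196 ± 148 and periostin (Postn) at 2702 ± 102. Of matrix proteases, the gelatinase Mmp2 and its membrane activator Mmp14 stood at 1698 ± 112 and 1244 ± 87.5 CPM, beside the inhibitor Timp2 at 2785 ± 191 CPM. The sum of matrix glycoproteins was nearly constant, between 46997 and 48263 CPM.

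Secreted growth factors were led by Ptn, pleiotrophin, at 2017 ± 259 CPM, and by the insulin-like growth factor system. Igf2 stood at 2342 ± 213 CPM and Igf1 at 542 ± 7.1 CPM, beside the binding proteins Igfbp4 at 4002 ± 314, Igfbp2 at 1600.3 ± 155 and Igfbp5, which binds bone mineral and matrix, at 912 ± 77.9. Per kb Igf2 made up 64.5% ± 2.40 of the 2 ligands, and 88.1% by merged exons, so Igf2 was the larger of the pair by either length. Igf1 measured 534, 547, 538 and 549 CPM, and the 4 cultures barely differed. Of the TGF-β ligands, Tgfb3 held 54.2% ± 1.03 per kb, Tgfb1 35.8% ± 2.17 and Tgfb2 9.96% ± 1.15. By merged exons, Tgfb3 held 69.1% and Tgfb1 19.7%.

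For bone morphogenetic proteins, 13 of 14 ligands and 9 of 9 antagonists were expressed. Gdf10 (BMP3B) stood at 296 ± 16.2 CPM and Bmp4 at 105 ± 4.24, whereas Bmp2 stood at 19.4 ± 1.196. The antagonist side held Fstl1, a secreted follistatin-like glycoprotein, at 2844 ± 176 CPM, Twsg1 at 234 ± 15.5, follistatin (Fst) at 176 ± 4.83 and noggin (Nog) at 7.77 ± 0.808. Of 19 Wnt ligands, 8 were expressed, led by Wnt5a at 50.5 ± 5.12 CPM and Wnt16, which protects cortical bone, at 38.7 ± 1.504 CPM. Secreted Wnt antagonists were more abundant, with Sfrp2 at 3641 ± 308 CPM, Sfrp1 at 746 ± 33.7 and Dkk3 at 533 ± 70.4. Dkk1, a ligand of Lrp5 and Lrp6 that blocks Wnt signalling, measured 7.06, 7.24, 12.1 and 17.2 CPM and was lowest in replicates 1 and 2. Sfrp5 had no count.

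Signals that osteoblasts send to osteoclast precursors were uneven. Csf1, needed for precursor survival, measured 259, 262, 254 and 247 CPM in 4 nearly equal cultures. Tnfsf11, which encodes RANKL, the signal for osteoclast formation, measured 1.702, 1.03, 1.31 and 1.88 CPM, at counts of 43 to 89 per culture. Tnfrsf11b, its decoy receptor osteoprotegerin, measured 36.8, 37.7, 35.96 and 41.7 CPM. Per kb osteoprotegerin exceeded RANKL by 21.4 ± 5.56-fold, between 17.2-fold and 29.1-fold, and made up 95.4% ± 1.02 of the pair. The chemokine Cxcl12 stood at 444 ± 49.1 CPM, while Il6 stood at 0.0549 ± 0.0407 CPM and Il1b had no count.

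Of the receptors listed, 25 of 32 for hormones and prostaglandins (78.1%) and 29 of 35 for growth factors (82.9%) were expressed. So were 14 of 15 Wnt receptors (93.3%) and 18 of 25 nuclear receptors (72.0%), against 56.3% of all protein-coding genes. By CPM the first list was led by Igf2r, the mannose 6-phosphate receptor, at 193 ± 8.54, Lpar1, for lysophosphatidic acid, at 159 ± 4.11, Pth1r at 142 ± 22.6 and the adiponectin receptor Adipor1 at 139 ± 3.59. Calcr, the calcitonin receptor of osteoclasts, had no count. Of the receptor activity-modifying proteins, Ramp2 held 85.0% ± 4.02 per kb and 72.2% by merged exons. However, Ramp2 shares a locus with Vps25 and varied between 31.9 and 75.9 CPM. Estrogen receptors were low, with Esr1 at 2.75 ± 0.155 CPM and Esr2 at 0.276 ± 0.252 CPM.

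By CPM, growth factor receptors were led by Tgfbr2 at 633 ± 46.7 CPM, Il6st (gp130) at 458 ± 18.1 and Ddr2, a receptor for fibrillar collagen, at 453 ± 23.8. Per kb, Tgfbr2 stood at 182 CPM, and Il11ra1, the receptor for interleukin 11, at 158, above Il6st and Ddr2, both at 52.8. Fgfr2 held 53.5% ± 1.93 of the FGF receptors per kb and Fgfr1 41.9% ± 1.49, an order that turned with merged exon lengths, at 41.4% and 51.4%. Fzd1 at 348 ± 23.8 CPM and the co-receptors Lrp6 at 247 ± 17.8 and Lrp5, a determinant of bone mass, at 157 ± 5.98 led the Wnt receptors. Integrin β1 (Itgb1) stood at 988 ± 9.37 CPM and the collagen-binding Itga11 at 245 ± 15.5. Of nuclear receptors, Thra, for thyroid hormone, stood at 224 ± 16.7 CPM and the glucocorticoid receptor Nr3c1 at 196 ± 7.03. The vitamin D receptor Vdr, named here after its values were seen, measured 18.7, 22.1, 26.04 and 34.5 CPM, lowest in replicate 1 and highest in replicate 4.

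Transcription factors of the skull mesenchyme were widely expressed. Of 20 factors of bone and skull listed, 19 were expressed, led by Prrx1, Zic1 at 204 ± 16.2 CPM, Atf4 at 152 ± 9.14 and Prrx2 at 141 ± 6.44. Runx2 made up 64.3% ± 0.445 of the 3 Runx genes per kb, Runx1 21.5% ± 1.002 and Runx3 14.3% ± 0.633. Of 39 Hox genes, which pattern the trunk and limbs, 9 were expressed, the highest being Hoxd8 at 22.9 ± 1.99 CPM, Hoxb3 at 7.32 ± 0.456, Hoxb2 at 5.94 ± 0.984, Hoxd9 at 5.86 ± 0.964 and Hoxa2 at 4.898 ± 0.6799. Their median was 0.131 ± 0.04596 CPM.

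Markers of other cells were checked in the same libraries. All 14 macrophage markers were expressed, with a summed level of 1456, 1184, 1326 and 1951 CPM in replicates 1 to 4, and 1322 CPM on average without replicate 4. Lyz2, lysozyme of myeloid cells, measured 928, 778, 873 and 1239.6 CPM, Csf1r, the receptor for Csf1, 71.8, 55.7, 60.6 and 100.5, and Adgre1, the F4/80 antigen, 75.2, 52.7, 61.5 and 97.9. Replicate 4 was the highest and replicate 2 the lowest for each of these 3 genes. Csf1r shares a locus with the neighbouring Hmgxb3. Red cell, neutrophil and lymphocyte genes were near 0, since none of the 14 blood cell markers had a mean of 1 CPM and 7 had no count in any culture. The highest single value was that of Hba-a1, a globin, at 1.06 CPM in replicate 4.

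Osteoclast markers were present in part. Ctsk, cathepsin K, stood at 469 ± 42.95 CPM, Nfatc1 at 45.1 ± 1.37 and Acp5, the tartrate-resistant acid phosphatase, at 24.6 ± 3.62, whereas Mmp9 stood at 7.24 ± 0.747 and the defining genes Calcr and Dcstamp, needed for cell fusion, had no count. The list summed to between 534 and 641 CPM, most of it Ctsk, and the sum was lowest in replicate 4, whereas the median of the list was 3.17, 3.58, 4.48 and 5.38 CPM and highest there. Chondrocyte genes were led by Col11a2 at 489 ± 140.4 CPM and Col2a1, the cartilage collagen, at 235, 232, 241 and 235 CPM. Sox9 stood at 75.3 ± 5.07 CPM and Acan, aggrecan, at 11.9 ± 1.67, while Matn1, a cartilage-restricted matrilin, stood at 0.0697 ± 0.0621. Col2a1 barely differed between cultures, while Col11a2 ranged from 364 to 687 CPM and followed the mature osteoblast markers.

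Since the labels name adipogenic differentiation, adipocyte markers were read against the osteoblast ones. Of 10 adipocyte markers, 7 were expressed, with a median of 5.51 ± 1.27 CPM against 277 ± 76.6 CPM for the osteoblast list, which was 239 CPM without replicate 4. Lpl, lipoprotein lipase, stood at 413 ± 25.997 CPM and the regulators Cebpa and Pparg at 78.95 ± 5.59 and 16.8 ± 1.44 CPM. Other listed genes of fat cells were low, with Fabp4 at 15.5 ± 3.93 CPM, perilipin 1 (Plin1) at 6.99 ± 1.07, adiponectin (Adipoq) at 3.63 ± 0.807, leptin (Lep) at 0.119 ± 0.0804 and resistin (Retn) at 0.271 ± 0.278. Every osteoblast marker thus stood above these low genes in every culture. Lpl differed from them, since on average it exceeded Alpl, Bglap, Pth1r, Runx2 and Sp7.

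Single genes of smooth muscle and tendon were abundant too, while the medians of their lists were 22.3 ± 2.68 and 44.97 ± 3.08 CPM and 2 genes of each list reached 100 CPM on average. Acta2, smooth muscle actin, measured 2107, 2040.0, 1928 and 1766 CPM and Tagln, transgelin, 629.7, 566, 496 and 475 CPM, while Myh11, the smooth muscle myosin, stood at 14.9 ± 1.66 and Myocd, the master factor of smooth muscle, at 0.171 ± 0.2105. Tnmd, tenomodulin of tendon cells, measured 768, 771, 712 and 665 CPM and Scx, the tendon factor scleraxis, 38.4, 35.3, 34.2 and 27.2 CPM. All 6 tendon markers were expressed and each was lowest in replicate 4. Endothelial, skeletal muscle, neural and epithelial genes were low, with medians of 0.4604 ± 0.112, 0.912 ± 0.159, 0.294 ± 0.124 and 0.0725 ± 0.08504 CPM. Erg at 17.6 ± 0.726 CPM and Myh8 at 34.5 ± 3.86 CPM were the highest of the first 2 lists, and the defining endothelial genes Emcn and Cldn5 had no count.

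**Figure D3:**
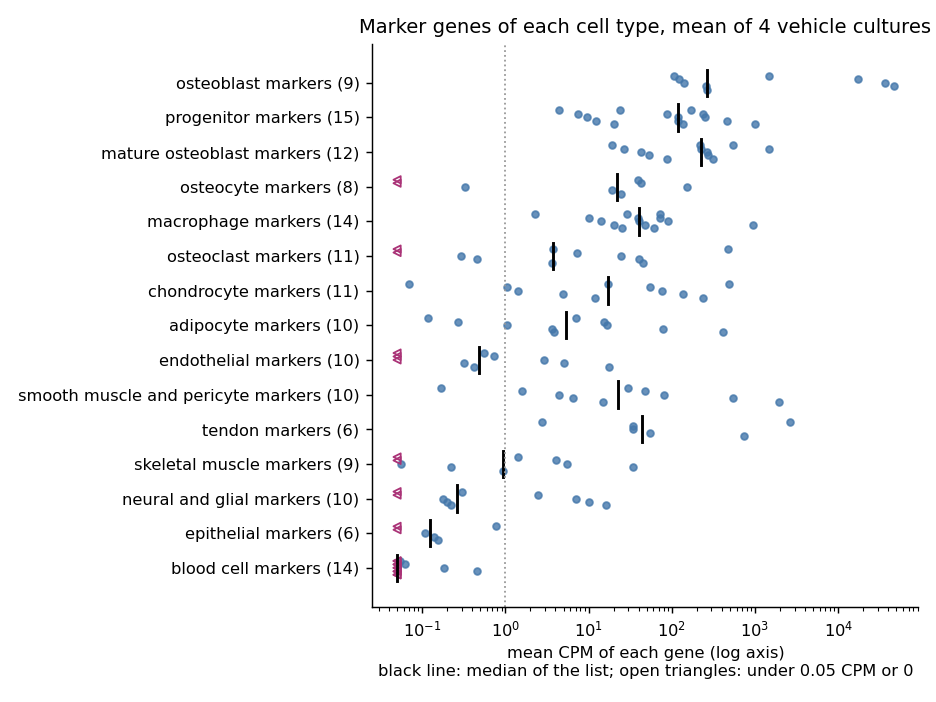
Mean CPM over the 4 vehicle cultures of each marker gene (points, x axis on a log scale) by cell type, with the number of genes in brackets, a black line at the median of each list and a dotted line at 1 CPM. The osteoblast, mature osteoblast and progenitor lists lie highest, while most endothelial, neural, epithelial and blood genes lie under 1 CPM.

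Xist, expressed from the inactive X chromosome of females, and the Y-linked Ddx3y, Eif2s3y, Kdm5d and Uty were all at 10 CPM or more on average, at 284 ± 18.5, 44.2 ± 1.89, 15.1 ± 0.836, 14.2 ± 1.17 and 12.4 ± 1.73 CPM, with CVs from 4.27% to 13.98%. Transcripts of both kinds were thus present in every culture. Imprinted fetal growth genes were all expressed, 9 of 9, with H19 at 1846 ± 60.4 CPM, Mest at 1007 ± 67.8 and Grb10 at 882 ± 35.7.

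All 21 proliferation genes were expressed, at a median of 25.5 ± 1.4999 CPM. Pcna, the sliding clamp of replication, stood at 67.1 ± 4.96 CPM and Mki67 at 48.4 ± 7.44. D-type cyclins were more abundant, with Ccnd2 at 606 ± 9.098 CPM and Ccnd1 at 448 ± 16.1, beside the cell cycle inhibitors Cdkn1a (p21) at 348 ± 17.3 and Cdkn1c (p57) at 228 ± 18.3. Immediate early genes had a median of 15.5 ± 1.06 CPM, against a median of 25.9 CPM for all expressed genes. Egr1, at 53.8 ± 6.13 CPM, lay above that level and Fos, at 9.29 ± 0.974, below it.

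Genes of fuel use were measured because the study turns on the fuels of the osteoblast. Of 28 genes of glucose uptake and glycolysis, 24 were expressed, led by Pkm, pyruvate kinase, at 574 ± 76.95 CPM, Ldha, lactate dehydrogenase A, at 399.8 ± 52.7 and Aldoa, aldolase A, at 379.6 ± 42.7. Ldha made up 90.7% ± 1.62 of the lactate dehydrogenases per kb. Slc2a1 (GLUT1) measured 16.5, 14.9, 18.1 and 21.5 CPM and made up 66.1% ± 5.97 of the 4 glucose transporters, and Hk1 80.9% ± 2.82 of the 4 hexokinases. By merged exons, Ldha held 86.3%, Slc2a1 72.2% and Hk1 68.2% of their families. Gapdh measured 9.21, 8.72, 9.18 and 48.6 CPM, far below its neighbours in the pathway, and its transcript shares 150 bases or more at 95% identity or more with 79 other annotated genes, which held 613 CPM together. The level of Gapdh is therefore uncertain, as is its high value in replicate 4.

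Of 34 genes of fatty acid uptake and oxidation, 30 were expressed. Cpt1a, the liver-type carnitine palmitoyltransferase 1 that admits long-chain fatty acids to mitochondria, measured 106, 108, 101 and 93.2 CPM, and Cpt1c, a form known from the brain, 63.5, 65.8, 54.8 and 57.7 CPM, whereas Cpt1b, the muscle form, stood at 0.369 ± 0.159 CPM in a locus shared with another gene. Per kb Cpt1a made up 52.0% ± 1.45 of the family, Cpt1c 47.7% ± 1.44 and Cpt1b 0.278% ± 0.108, or 0.447% for Cpt1b by merged exons. Cpt2, the single inner-membrane partner, named here after its values were seen, measured 33.98, 38.04, 37.3 and 32.5 CPM. Hadha, the α subunit of the mitochondrial trifunctional protein, stood at 128 ± 1.95 CPM, and 4 long-chain acyl-CoA synthetases shared the family, with Acsl5 at 29.997% ± 1.44 per kb, Acsl3 at 25.96% ± 0.7004, Acsl1 at 25.7% ± 1.54 and Acsl4 at 17.1% ± 1.90. By merged exons, Acsl1 held 12.5% and Acsl4 21.9%, so their order turned. The Acsl5 and Acsl3 values are uncertain where their transcripts share sequence with the neighbouring Zdhhc6 and Utp14b. Cd36, the fatty acid translocase, also named after its values were seen, measured 52.0, 43.1, 53.8 and 68.1 CPM, highest in replicate 4. Plin2, which coats lipid droplets, stood at 93.8 ± 7.28 CPM and the triglyceride lipase Pnpla2 at 25.7 ± 1.25. Lrp1, a receptor for lipoproteins, stood at 788 ± 96.7 CPM.

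The 4 cultures were alike in most genes. Across the expressed genes, Pearson's r of log2(CPM + 1) between pairs of cultures lay between 0.992 and 0.995, and Spearman's rho between 0.992 and 0.995, as a description across genes, which are not independent. Differences between each pair of cultures exceeded counting error, with a chi-square per gene of 12.3 to 39.2, so that no pair of cultures looked like 1 library deposited again. The biological coefficient of variation, edgeR's measure of the spread between samples beyond counting error, was 0.109. Among 9877 genes at 10 CPM or more, the median CV was 6.13%, with quartiles of 4.06% and 9.06%, and 2.48% of these genes had a CV above 20%. Genes between 1 and 10 CPM had a median CV of 16.2%, and those between 100 and 1000 CPM one of 4.31%.

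The smallest CVs among genes at 10 CPM or more were those of Prps1l3, Stk25 and Fgf7, at 0.261%, 0.282% and 0.293%. The first pair each share sequence with another gene (Prps1 and Farp2). Fgf7, keratinocyte growth factor, measured 65.8, 66.1, 65.8 and 65.6 CPM. At its 2765 to 3099 counts per culture, counting error alone would give a larger CV. Such values are the smallest picked from 9877 genes, so they do not show that these genes are steadier than others. The most variable were Cenpb, Gapdh, Gm42418, Mir5114 and Gm28036, followed by Slc16a3, Phospho1, Phc3, AY036118 and Rn18s-rs5, with CVs from 51.1% to 121%. Of these, 7 lie in a shared locus or are ribosomal RNA entries. Slc16a3, the lactate exporter MCT4, measured 15.1, 5.21, 7.27 and 20.5 CPM and was high in replicates 1 and 4.

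**Figure D4:**
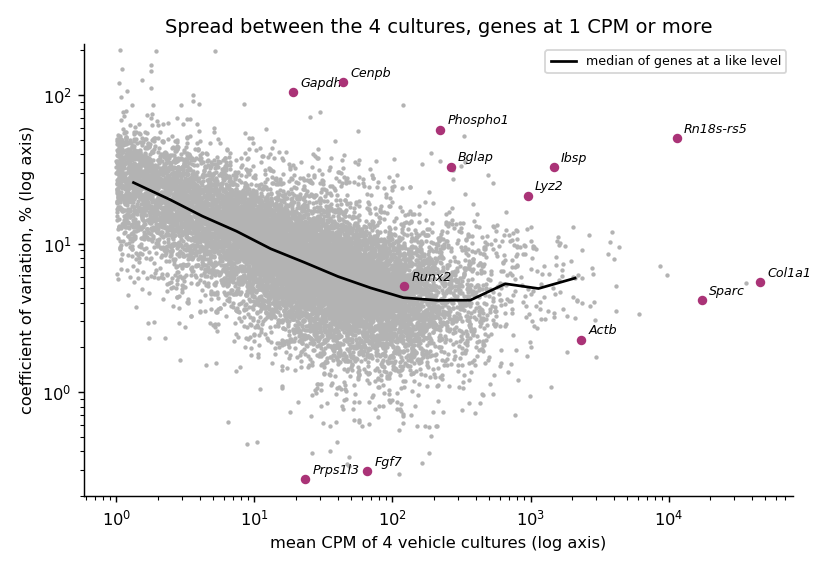
CV over the 4 vehicle cultures (y axis, log scale) against mean CPM (x axis, log scale) for genes at 1 CPM or more, with a black line through the medians of genes at a like level and named genes in colour. Ibsp, Bglap and Phospho1 lie far above the line, with CVs of 32.6%, 32.8% and 58.3%, and Runx2 lies near it with 5.18%.

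The first principal component of the 9876 expressed genes with a mean of 10 CPM or more held 48.7% of the variance and set replicate 4 farthest from replicate 1. Of all 9877 genes with such a mean, 41 were at least 1.5-fold higher in replicate 4 than in each other culture, against 7, 1 and 7 in replicates 1, 2 and 3. All 12 mature osteoblast markers were highest in replicate 4, where 27.5% of all 13965 genes at 1 CPM or more were. Their median level in the 4 cultures was 0.816, 0.796, 0.970 and 1.47 of each gene's own mean. Ibsp was 1.76-fold, Bglap 1.75-fold, Smpd3 1.81-fold and Dmp1 1.75-fold the mean of the other 3 cultures.

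All 14 macrophage markers and all 9 osteoblast markers were highest in replicate 4 too. Bglap and Ibsp belong to both the osteoblast and the mature osteoblast list, so these lists are not independent. The mature list also counts both Bglap and Bglap2, whose split is uncertain. All 6 tendon markers, 7 of 9 smooth muscle and pericyte markers and 21 of 37 collagen genes were lowest in replicate 4, where 27.6% of all genes were. For the macrophage list the relative levels were 0.993, 0.774, 0.870 and 1.37, so replicate 1 stood higher than replicates 2 and 3, unlike in the mature osteoblast list. Proliferation genes were highest in replicate 4 in 15 of 21, and genes of glucose uptake and glycolysis in 16 of 25. Adipocyte markers had relative levels of 1.25, 0.979, 0.948 and 0.889 and were highest in replicate 1. The macrophage markers moved with the mature markers in replicate 4, and their part in that difference was not tested.

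**Figure D5:**
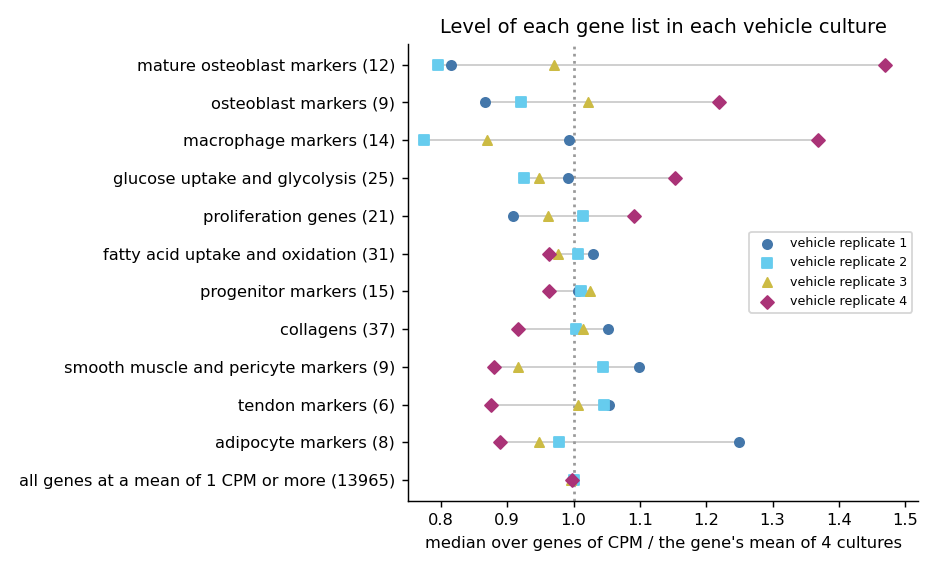
Median over the genes of each list of the CPM in 1 culture divided by the gene's mean over the 4 vehicle cultures (x axis), for genes at 1 CPM or more, with their number in brackets. Vehicle replicate 4 lies to the right for mature osteoblast and macrophage markers, at 1.47 and 1.37, and to the left for tendon and smooth muscle markers, at 0.876 and 0.880, while the medians of all genes lie close to 1 in every culture.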

How the data were processed

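RNA was sequenced from 4 vehicle-treated cultures, assigned by their labels. The authors aligned paired reads of 150 bases to GRCm38 with HISAT2, assembled transcripts with StringTie and deposited whole-number counts per gene, not normalized between samples. These counts come from transcript coverage, and the read length given to that script, the strand setting and the annotation version are not given in the sources used here. If a length of 75 bases was used, every count is too high by the same factor, which leaves CPM as it is. Entries with the same symbol were represented by the one with the highest mean count, and 2 entries without a symbol were left out. The 4 columns of PTH-treated cultures entered no comparison and served only 1 alternative scaling.

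CPM were computed on TMM library sizes (edgeR 4.0.16, R 4.3.3) from the 4 cultures. Positions and main transcript lengths came from GENCODE M21, to which 46538 of 47592 symbols were matched. Genes at 1 CPM or more in all 4 cultures were taken as expressed. Dispersion was estimated after filterByExpr (minimum count 10, minimum total 15) and checked on simulated counts. Near-identical sequence was searched with blastn 2.17.0, and values were tabulated with pandas 2.3.3 under Python 3.11.15. The floor of 3 counts covers counting error only. No test between groups was made, since the cultures form 1 group, and Dixon's criterion was used for single distant cultures.

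The members and the 47 gene lists were chosen with earlier results of these data known. The rule names the 30 genes with the highest CPM, the 15 highest per kb, all osteoblast markers, the 5 highest members of each list, every member of lists of up to 15 genes and of 17 families, and the 10 largest and 10 smallest CVs at 10 CPM or more. Some genes that the rule names are not reported here. Alternatives were other scalings (raw totals, DESeq2 1.42.0 size factors, TMM over all 8 samples), counts summed by symbol, mitochondrial genes left out, other thresholds and each culture left out. Leaving out the ribosomal RNA entries was added after the data were seen.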

Additional observations from a re-analysis of the deposited data

Results flagged for a closer look

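In each group of 4 values, the gap between the most distant culture and its nearest neighbour was set against the whole range. Of 249 values tested, 18 had a gap above Dixon's 95% critical value. Chance gives about 1 in 20 such groups, but the values include genes named for their large CVs, among them Cenpb, Gapdh, Phospho1 and Rn18s-rs5, so the count cannot be set against that rate. Of the 18, 12 had the distant culture in vehicle replicate 4, in 9 as the highest and in 3 as the lowest.

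Among the genes of bone, Bglap2 was highest in replicate 4 at 403 CPM against 223 to 246 CPM, Bglap3 was highest in replicate 4 at 3.56 CPM against 0.215 to 0.373 CPM and Phospho1 was highest in replicate 4 at 413 CPM against 137 to 176 CPM. The near-identity of the osteocalcin genes and the locus that Phospho1 shares with Zfp652 apply to these values. Of other genes with a distant replicate 4, Gapdh was highest in replicate 4 at 48.6 CPM against 8.72 to 9.21 CPM, Pkm was highest in replicate 4 at 689 CPM against 522 to 544 CPM, Tgfb1 was highest in replicate 4 at 110.3 CPM against 93.8 to 95.9 CPM, Tgfb2 was lowest in replicate 4 at 54.8 CPM against 67.2 to 68.6 CPM, Prrx2 was lowest in replicate 4 at 132 CPM against 143 to 146 CPM and Thbs2 was lowest in replicate 4 at 3193 CPM against 4029.5 to 4179 CPM.

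In the other cultures, Cenpb was highest in replicate 1 at 123 CPM against 9.49 to 22.8 CPM, Cpt1b was highest in replicate 1 at 0.606 CPM against 0.275 to 0.311 CPM, Hoxb3 was highest in replicate 2 at 8.004 CPM against 7.04 to 7.13 CPM, Gm27288 was lowest in replicate 2 at 75.2 CPM against 217 to 234 CPM and Rn18s-rs5 was highest in replicate 3 at 20136 CPM against 7174 to 9336 CPM. Cenpb, Cpt1b, Gm27288 and Rn18s-rs5 each lie in a locus shared with another symbol.

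For whole lists, the median of the adipocyte markers was highest in replicate 1 at 7.4002 CPM against 4.73 to 5.05 CPM, the median of the collagens was highest in replicate 4 at 79.4 CPM against 66.3 to 67.4 CPM, the median of the BMP antagonists was highest in replicate 4 at 42.3 CPM against 29.2 to 30.3 CPM and the median of the hormone and prostaglandin receptors was highest in replicate 4 at 16.4 CPM against 14.03 to 14.4 CPM. Of the collagens at 1 CPM or more, 21 of 37 were lowest in replicate 4 and 6 were highest, with a median of 0.916 of each gene's own mean. Of the BMP antagonists, 5 of 9 were highest in replicate 4 and 3 were lowest, and of the 26 receptors, 9 were highest and 9 were lowest.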

How the results depend on the processing

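No paired analysis was possible because the cultures form 1 group and no comparison between groups was made. Under other scalings, counts summed by symbol and mitochondrial genes left out of the total, none of the 15 cell type list medians, the number of expressed genes or the shares of counts moved beyond its own limit. That limit was a 1.5-fold change for the number of genes and the SD over the 4 cultures for medians and shares. The other scalings moved the mean CPM of named genes only between -3.75% and 0.79%, so these wide limits were hard to exceed. Over thresholds of 0.5 and 2 CPM and filterByExpr, the number of expressed genes ranged from 12595 to 15409. Without each culture in turn, it lay between 13531 and 13562, the osteoblast marker median between 239 and 297 CPM, that of the mature list between 170.3 and 239.9 CPM and that of the macrophage list between 34.6 and 42.8 CPM, lowest without replicate 4 in each of these 3 lists.

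The biological coefficient of variation moved from 0.109 to 0.125 with no filter on low counts, to 0.0868 with counts halved and to 0.0840 among genes with a mean of 10 CPM or more, and to between 0.0982 and 0.118 without each culture. Named genes moved most without 1 culture, with Cenpb 60.2% lower without replicate 1 and Bglap3 74.9% lower without replicate 4. Family shares moved beyond their SD in 43 of 70 values under other lengths. Depth limits genes near the floor of 3 counts, where CVs of low genes include counting error.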
